A study of Mus musculus with 4 samples.

Results

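Mitochondrial ribosomal proteins are the nuclear-encoded proteins of the ribosome that works inside mitochondria. Their genes were taken from the deposited counts of splenic B cells by symbol, as every gene named Mrpl or Mrps followed by a number and at most 1 further letter. The rule found 78 of the 55401 listed genes, 49 with an Mrpl symbol, which stands for the large subunit, and 29 with an Mrps symbol, which stands for the small subunit. B220+ B cells had been sorted from spleens of C57BL/6J mice, and 4 RNA-seq libraries were compared, 2 of NSD1B WT (Mb1-Cre+ NSD1+/+) and 2 of NSD1B KO (Mb1-Cre+ NSD1fl/fl) cells. Both genotypes carry Mb1-Cre, a recombinase driven from the Cd79a locus in the B lineage, and in NSD1B KO cells it removes the floxed part of Nsd1, which encodes a histone H3 lysine 36 methyltransferase. Per the methods of the study the controls were littermates and young adult males and females were used, without the age or sex of each library. Nothing given here says whether the 2 libraries of a genotype came from different mice, so the p-values measure only the spread between these libraries, which may be technical.

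The mitochondrial ribosome translates the few messages of the mitochondrial genome, which encode core subunits of the respiratory chain and of ATP synthase. Its small subunit binds and decodes the message, and its large subunit joins the amino acids and releases the chain towards the inner membrane. Many of its proteins descend from the bacterial ribosome, while others were added in the mitochondrial lineage, and every protein is made in the cytosol and imported before assembly around the mitochondrial rRNAs.

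The libraries held between 6769118 and 7566834 counts on genes. Nsd1 had 497 and 480 counts in the NSD1B WT libraries and 284 and 280 in the NSD1B KO libraries, in the direction of the labels (log2 fold change -0.74, SE 0.11). Of 11657 genes with enough counts to be tested, 1313 had 0 counts in both NSD1B KO libraries and 890 had 0 in both NSD1B WT libraries. Among these, 275 and 168 genes had at least 100 counts in each library of the other genotype. No tested mitochondrial ribosomal protein gene was at 0 in both libraries of a genotype. B cell markers summed to 12700 and 12500 CPM (counts scaled to a common library size) in NSD1B WT and 12000 and 11000 in NSD1B KO, and 5 of the 6 were lower. Erythroid markers rose, 4 of 4, from 39.6 and 35.6 to 1940 and 1680 CPM. Myeloid markers (4 of 6 higher, 2 lower) went from 4570 and 4670 to 6070 and 5720 CPM, T cell markers (2 of 3 tested higher, Cd4 and Cd8a at 0 throughout) from 41.8 and 39.8 to 66.6 and 66.1, and NK cell markers (1 higher and 1 lower of 2 tested, Ncr1 at 0 throughout) from 55.8 and 59.6 to 79.9 and 79.7. Plasma cell markers (1 higher and 2 lower of 3 tested, Sdc1 at 0 throughout) went from 231 and 216 to 170 and 174 CPM. The summed proliferation markers were 228 and 233 against 221 and 214 CPM, most of it Pcna, while Mki67, Top2a, Cdk1 and Ccnb1 were at 0 in both NSD1B KO libraries and Mcm2 was at 0 in all 4. The part of other cells in the values that follow was not tested, and in such bulk samples fewer cells of a type and less RNA per cell cannot be told apart.

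The mitochondrial ribosomal protein genes moved in both directions in NSD1B KO B cells, and their summed level hardly moved. Of the 78 genes, 76 passed the filter on low counts and were tested. The quasi-likelihood test of edgeR was run on all 11657 genes, and a gene counted as higher or lower where its p, after Benjamini-Hochberg adjustment over them, was under 0.05 and its level differed by more than 1.2-fold. By this rule 28 of the 76 were higher (36.8%), against 37.1% of all tested genes, and 25 were lower (32.9%), against 41.1%. The share past the threshold in either direction was 69.7%, against 78.2% of all tested genes. The 2 NSD1B KO libraries did not overlap the 2 NSD1B WT libraries for 65 of the 76 genes (85.5%), against 88.1% of all tested genes. The shares of called genes were thus near or below those of the whole table.

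The changes of the family were smaller than those of the whole table, which holds mostly genes of lower level. The median absolute log2 fold change of the 76 was 0.44, against 1.16 over all tested genes, and 21 of them (27.6%) changed more than 2-fold, against 54.3%. Among genes of the lowest range of level, however, 16 of 26 members (61.5%) changed more than 2-fold, against 61.4% of all tested genes in that range. The median signed log2 fold change was 0.01 (quartiles -0.46 and 0.42), against -0.10 for all genes. Libraries of the same genotype differed little, with a median absolute log2 ratio of 0.0882 in NSD1B WT and 0.112 in NSD1B KO.

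By symbol, 19 of 47 large subunit genes were higher (40.4%) and 13 lower (27.7%), against 37.1% and 41.1% of all tested genes. The large subunit median log2 fold change was 0.05 (quartiles -0.36 and 0.40). Scaling by library size alone turned the large subunit split to 16 higher and 19 lower. Of 29 small subunit genes, 9 were higher (31.0%) and 12 lower (41.4%), with a median of -0.10 (quartiles -1.04 and 0.46). Once a trend in exon length and GC content was removed, 12 were higher and 10 lower. Changes over 2-fold were seen in 8 large subunit genes (17.0%; 3 up and 5 down) and in 13 small subunit genes (44.8%; 5 up and 8 down). The median absolute log2 fold change was 0.40 and 0.70 in that order. The difference between the subunits was not tested, and the size of a change also went with the level of the gene, as given further on.

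**Figure D1:**
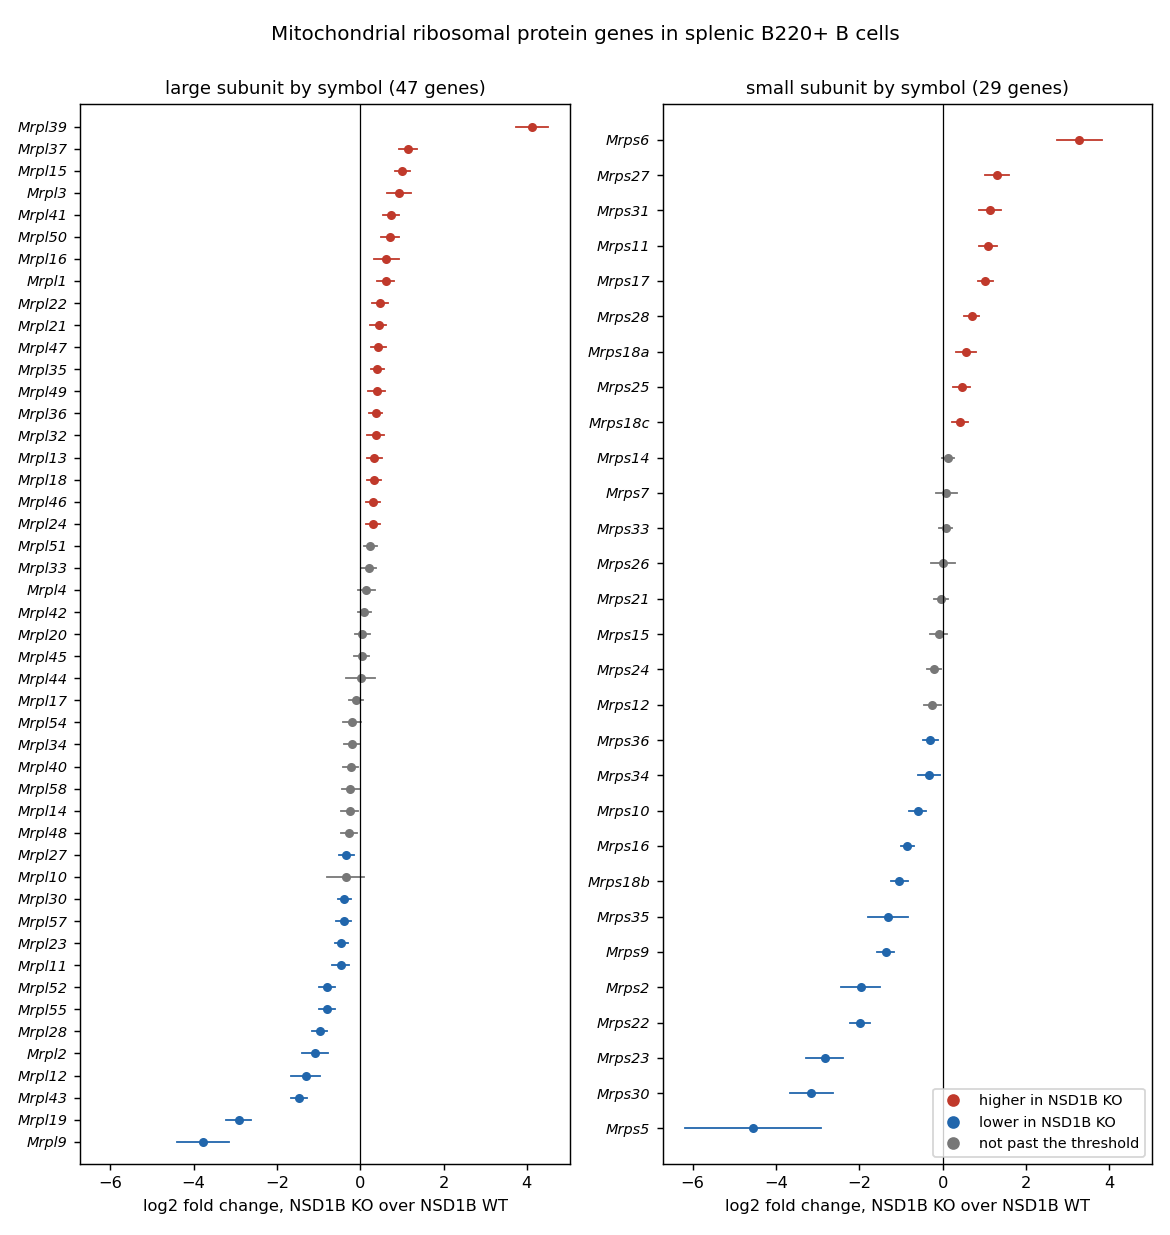
Log2 fold change (NSD1B KO over NSD1B WT) of the 47 large subunit and 29 small subunit genes that were tested, ordered by value, with 95% confidence intervals from edgeR's quasi-likelihood fit as horizontal lines. Red points are genes called higher (19 and 9), blue points genes called lower (13 and 12) and grey points those not past the threshold (15 and 8).

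Mrpl39, a large subunit protein near the exit of the nascent chain, rose most. Its gene (chr16:84717576-84735742, minus strand, mm10) had 27 and 24 counts in the NSD1B WT libraries and 468 and 396 in the NSD1B KO libraries. This was a 17.5-fold increase (log2 fold change 4.13, SE 0.19, adjusted p 9.05e-25 by edgeR's quasi-likelihood test). Mrps6, a small subunit protein with a bacterial homologue, followed with 21 and 14 against 169 and 161 counts, a 9.72-fold increase (log2 fold change 3.28, SE 0.27). Its exons share 305 bases with Gm49711, which had 0 counts in every library. The other 6 of the 8 largest increases lay close to 2-fold.

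Those 6 were Mrps27, Mrpl37, Mrps31, Mrps11, Mrps17 and Mrpl15. Mrps27, a pentatricopeptide repeat protein of the small subunit, had 155 and 159 counts in NSD1B WT and 439 and 308 in NSD1B KO (log2 fold change 1.30, SE 0.14). It shares 506 of its 2093 exonic bases with 6430562O15Rik, which also rose, from 65 and 55 to 136 and 121 counts. Mrpl37, a large subunit protein without a bacterial homologue, had 276 and 253 against 605 and 523 counts (1.14, SE 0.11). Mrps31, of the head of the small subunit, had 183 and 172 against 431 and 320 counts (1.13, SE 0.14). In Mrps27, Mrpl37 and Mrps31, as the choice required, the lower NSD1B KO library was above both NSD1B WT libraries. Mrps11 had 292 and 273 against 574 and 575 counts (1.08, SE 0.11), with NSD1B KO libraries that were nearly equal. Mrps17, a homologue of a bacterial small subunit protein, had 553 and 608 against 1169 and 1096 counts (1.02, SE 0.09). Mrpl15, a homologue of a bacterial large subunit protein, had 595 and 635 against 1321 and 1077 counts (1.01, SE 0.09). That the genotypes were separate for all 8 genes was a condition of their choice.

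The largest decreases were in genes of low to middle level. Mrps5, whose bacterial homologue lines the entry of the message into the small subunit, had 16 and 14 counts in NSD1B WT and 1 and 0 in NSD1B KO. The ratio of NSD1B WT to NSD1B KO was 28.9, with a 95% counting interval of 4.80 to 1180, which covers counting error only, and its fitted value in the plots depends on the prior count. Mrpl9 (chr3:94443318-94451130, plus strand), of the large subunit, fell 13.6-fold, from 146 and 140 to 8 and 12 counts (log2 fold change -3.77, SE 0.31, adjusted p 2.64e-15 by edgeR's quasi-likelihood test). Mrps30 fell 8.93-fold, from 188 and 166 to 20 and 18 counts (-3.16, SE 0.26). It shares 623 of its 6666 exonic bases with B430218F22Rik, which also fell, from 30 and 31 to 0 and 0 counts. Despite its symbol, the Mrps30 protein sits in the large subunit. Mrps5, Mrpl9 and Mrps30 each had at least 14 counts in every NSD1B WT library and at most 20 in an NSD1B KO library.

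Mrpl19, of the large subunit, fell 7.58-fold, from 507 and 574 to 67 and 70 counts (log2 fold change -2.92, SE 0.15). Of its 5450 exonic bases, 1962 lie opposite Gcfc2, whose counts were 13, 9, 18 and 15. Mrps23 and Mrps22, small subunit proteins that mitochondria added to the bacterial set, also fell. Mrps23 went from 205 and 217 to 33 and 24 counts (-2.83, SE 0.22) and Mrps22 from 578 and 625 to 156 and 137 (-1.98, SE 0.12). Mrps2, which has a bacterial homologue, went from 154 and 151 to 38 and 37 counts (-1.97, SE 0.23). Mrpl43, of the large subunit, went from 1211 and 1157 to 455 and 367 counts (-1.47, SE 0.10) and was the most abundant of the 8. It shares 507 exonic bases with Twnk, the mitochondrial helicase gene, which also fell, from 1150 and 1189 to 379 and 274 counts.

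**Figure D2:**
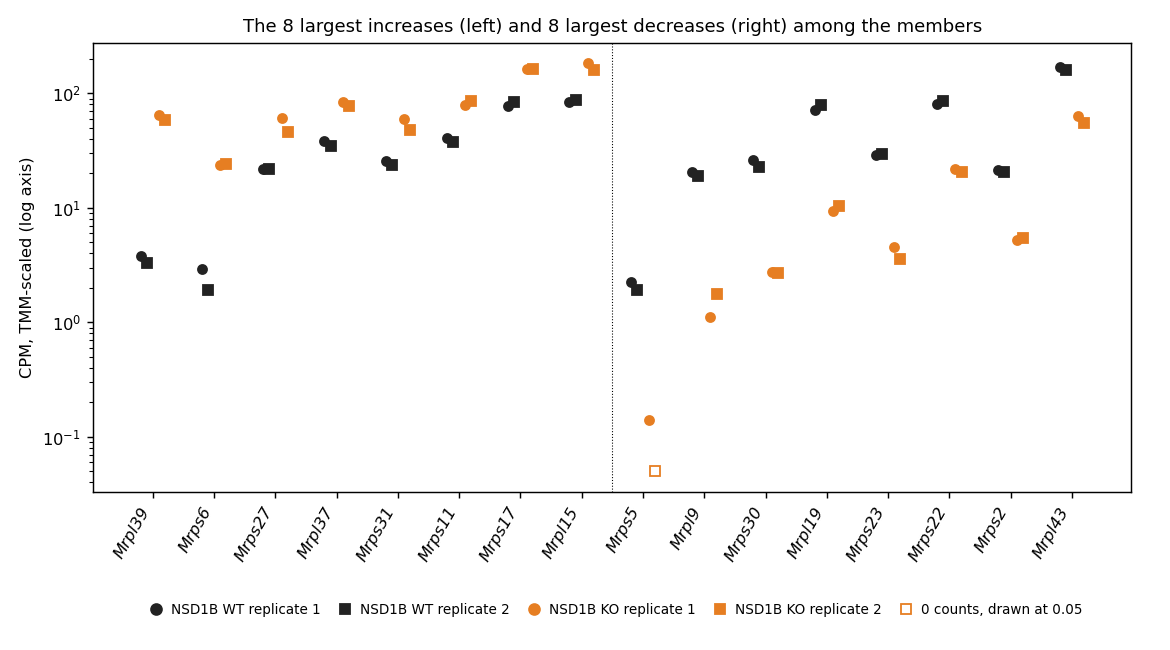
CPM (log axis) of the 8 largest increases and the 8 largest decreases in each of the 4 libraries, black for NSD1B WT and orange for NSD1B KO, circles for replicate 1 and squares for replicate 2; the open square stands for 0 counts. These 16 genes were chosen among called members whose genotypes did not overlap, so their separation here follows from the choice.

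Promoters are shown for 5 of these 16 genes, namely each whose window holds letters of NRF1 or YY1, transcription factors known to act on nuclear genes for mitochondria. RefSeq promoter windows, from 250 bases before to 50 bases after the start in GRCm38.p6, were found for 69 of the 78 genes (75 windows). The motifs searched on both strands were NRF1 (GCGCATGCG), the ETS family (CCGGAAGT), YY1 (AAGATGGCG) and the SP1 family (GGGCGGGG). None of the 4 overlaps another in the windows printed, except that the NRF1 letters in Mrpl39 and in Mrpl9 match both strands 1 base apart. Of the same 16, Mrps6, Mrps17 and Mrps5 hold SP1 letters, Mrpl43 ETS letters and Mrps22 both, and are not printed. Capitals mark the matches. Each is written 5′ to 3′ on the strand of the gene.
Mrpl39 (chr16:84735195-84735494, minus strand, higher): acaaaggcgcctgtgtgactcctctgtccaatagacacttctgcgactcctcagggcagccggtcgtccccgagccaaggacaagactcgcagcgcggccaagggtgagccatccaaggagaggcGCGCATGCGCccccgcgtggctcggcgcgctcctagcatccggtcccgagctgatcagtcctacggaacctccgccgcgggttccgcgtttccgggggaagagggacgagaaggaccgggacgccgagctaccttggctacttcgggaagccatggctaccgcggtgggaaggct
Mrps27 (chr13:99344536-99344835, plus strand, higher): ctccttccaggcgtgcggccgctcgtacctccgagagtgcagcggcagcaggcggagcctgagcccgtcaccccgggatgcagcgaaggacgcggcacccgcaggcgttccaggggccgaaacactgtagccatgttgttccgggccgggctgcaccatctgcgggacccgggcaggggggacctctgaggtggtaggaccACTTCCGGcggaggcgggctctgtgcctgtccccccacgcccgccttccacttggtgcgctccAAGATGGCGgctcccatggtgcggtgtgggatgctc
Mrps11 (chr7:78782881-78783180, plus strand, higher): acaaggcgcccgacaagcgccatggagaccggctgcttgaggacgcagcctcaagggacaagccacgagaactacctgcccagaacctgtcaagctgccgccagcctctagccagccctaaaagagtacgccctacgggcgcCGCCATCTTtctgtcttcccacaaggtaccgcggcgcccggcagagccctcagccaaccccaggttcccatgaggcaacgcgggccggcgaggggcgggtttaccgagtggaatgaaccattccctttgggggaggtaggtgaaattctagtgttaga
Mrpl37 (chr4:107066817-107067116, minus strand, higher): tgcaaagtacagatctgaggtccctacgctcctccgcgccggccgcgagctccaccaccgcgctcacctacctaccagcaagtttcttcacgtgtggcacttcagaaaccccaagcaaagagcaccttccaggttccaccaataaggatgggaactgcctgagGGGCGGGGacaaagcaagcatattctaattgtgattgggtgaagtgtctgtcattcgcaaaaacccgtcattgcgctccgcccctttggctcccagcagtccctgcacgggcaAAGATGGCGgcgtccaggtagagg
Mrpl9 (chr3:94443086-94443385, plus strand, lower): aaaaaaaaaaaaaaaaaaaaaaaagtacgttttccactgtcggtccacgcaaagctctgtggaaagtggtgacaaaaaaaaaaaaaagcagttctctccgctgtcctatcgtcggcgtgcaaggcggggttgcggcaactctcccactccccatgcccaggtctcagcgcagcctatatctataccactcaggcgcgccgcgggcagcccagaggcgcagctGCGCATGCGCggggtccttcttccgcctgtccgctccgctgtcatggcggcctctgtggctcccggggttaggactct

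The NRF1 letters begin 125 bases before the start in Mrpl39, the largest increase, and 28 bases before it in Mrpl9, whose decrease was among the largest, so the same letters stood before genes that moved in opposite directions. The YY1 letters begin 15 bases after the start in Mrps27 and 27 bases after it in Mrpl37, and lie on the reverse strand 108 bases before it in Mrps11. NRF1 letters were in 7 of the 75 member windows (9.33%), against 1.75% of all 32851 promoter windows and 3.76% of those of tested genes. ETS letters were in 12 (16.0%), against 3.89% and 8.94%, and YY1 letters in 8 (10.7%), against 1.40% and 3.35%. SP1 letters were in 18 (24.0%), against 17.6% and 31.2%. The YY1 letters stood in 6 of 25 windows of genes that were higher and in 0 of 25 of genes that were lower. They were also in 2 of 24 windows of genes not past the threshold, Mrpl42 and Mrps24. NRF1 letters were in 3 windows of higher and 2 of lower genes. ETS letters were in 4 and 4 of them, and SP1 letters in 4 and 8. The 25 windows of lower genes belong to 22 genes. These differences were not tested, and the same split was not made for all tested genes. No letters of the 4 kinds were found in 36 windows, which says only that these letters are not in these windows. The matches are a description and no binding was measured.

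Grouped by place in the ribosome, the stalks of the large subunit, which receive and release tRNAs and translation factors, held 1 gene that rose and 2 that fell. Mrpl12, the factor-binding stalk protein, fell (log2 fold change -1.31), as did Mrpl11 (-0.47), while Mrpl1 rose (0.61). Mrpl10, which anchors Mrpl12, had a value of -0.35 with a 95% interval of -0.80 to 0.10 and was not past the threshold. Around the exit tunnel, 3 of 7 genes rose and 1 fell. Beside Mrpl39, Mrpl22 (0.47) and Mrpl24 (0.30) rose and Mrpl23 (-0.45) fell, and Mrpl45, which ties the ribosome to the inner membrane, stood at 0.04. Near the peptidyl transferase centre, where peptide bonds form, Mrpl3 (0.94) and Mrpl16 (0.63) rose and Mrpl2 (-1.09) and Mrpl27 (-0.34) fell. The 4 neighbours of the catalytic site thus split evenly, beside a share of called genes of 78.2% in the whole table.

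In the central protuberance, at the interface with the small subunit, Mrpl18 (0.33) and Mrpl46 (0.31) rose, and Mrpl48 (-0.26) and Mrpl40 (-0.23) were not past the threshold, missing it by the fold limit alone (1.19-fold and 1.18-fold lower) and called lower in 4 of 13 alternative fits each. Mrpl38, of the same structure, was not tested, with 2 and 2 counts in NSD1B WT and 0 and 0 in NSD1B KO. Mrpl58, a peptidyl-tRNA hydrolase built into the large subunit, had a value of -0.24 and was not past the threshold. The other untested gene, Mrpl53, had 0 counts in all 4 libraries, and 695 of its 790 exonic bases are shared with Gm42688 on the same strand.

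In the head of the small subunit, 1 of 8 genes rose and 3 fell. Mrps31 rose (1.13), and Mrps9 (-1.37), Mrps35 (-1.31) and Mrps10 (-0.59) fell. The others were Mrps14, Mrps7, Mrps24 and Mrps33, none past the threshold. Mrps7 was called higher (0.48) with the trend in exon length and GC content removed, and Mrps24 lower (-0.28) with library size alone. Mrps12, beside the decoding centre, had a value of -0.26 and was not past it either. The stalks, the exit tunnel, the peptidyl transferase centre and the head each held rises and falls side by side at shares that so few genes cannot set apart from the whole table.

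The 3 genes named Mrps18, which descend from 1 bacterial protein, went apart. Mrps18a had 349 and 332 counts in NSD1B WT and 553 and 416 in NSD1B KO (log2 fold change 0.56, SE 0.11). Mrps18b had 932 and 920 against 514 and 357 counts (-1.04, SE 0.10). It shares 638 of its 2089 exonic bases with Gm16279, which also fell, from 473 and 450 to 298 and 232 counts. Mrps18c had 738 and 711 against 939 and 923 counts (0.42, SE 0.09). Mrps18b fell and the other members of the trio rose, and none of the 3 overlapped between genotypes. Mrps18a, like Mrps30, is built into the large subunit, and Mrps36 belongs to a dehydrogenase complex rather than to the ribosome. Mrps36 fell, from 914 and 986 to 758 and 732 counts (-0.30, SE 0.09).

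Placing these 3 by where the protein sits left 20 higher and 14 lower of 49 large subunit genes and 8 higher and 10 lower of 26 small subunit genes. The medians were then 0.05 and -0.07. By descent, 19 of 48 tested genes with a bacterial homologue were higher and 16 lower, with a median of 0.01. Of 28 without one 9 were higher and 9 lower, with the same median of 0.01. The share past the threshold was 72.9% with and 64.3% without a homologue, against 78.2% of all tested genes. Within the large subunit by place it was 77.4% and 55.6% (medians 0.15 and 0.02). Within the small subunit it was 64.7% and 77.8% (medians -0.10 and 0.01). These differences were not tested.

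Since gains and losses were of like size, the summed levels hardly differed. The large subunit genes summed to 5987 and 5880 CPM in NSD1B WT and to 6203 and 5914 in NSD1B KO, a ratio of the means of 1.02. The small subunit genes summed to 3278 and 3176 CPM and to 3203 and 3080, a ratio of 0.974. In both cases the ranges of the genotypes overlapped under the TMM scaling used for CPM. With library size alone both sums were lower in NSD1B KO, as given further on. The ratio of the large to the small sum was 1.83 and 1.85 in NSD1B WT and 1.94 and 1.92 in NSD1B KO, so these ranges did not overlap. With 2 libraries against 2, an exact permutation test cannot reach 0.05, and none is given.

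Behind the sums stood larger movements of single genes. Large subunit genes whose mean rose gained 906.8 CPM over 26 genes, and those whose mean fell dropped by 781.8 CPM over 22, counted whether or not they passed the threshold. For the small subunit the gain was 434.7 CPM over 13 genes, and the other 16 dropped by 520.1 CPM. The largest gains were those of Mrpl15 (86.8 CPM), Mrps17 (82.4 CPM) and Mrpl18 (74.1 CPM). The largest losses were those of Mrps16 (-116 CPM), Mrpl43 (-105 CPM) and Mrpl28 (-103 CPM). Mrps16 and Mrpl28 were named after their values were seen.

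**Figure D3:**
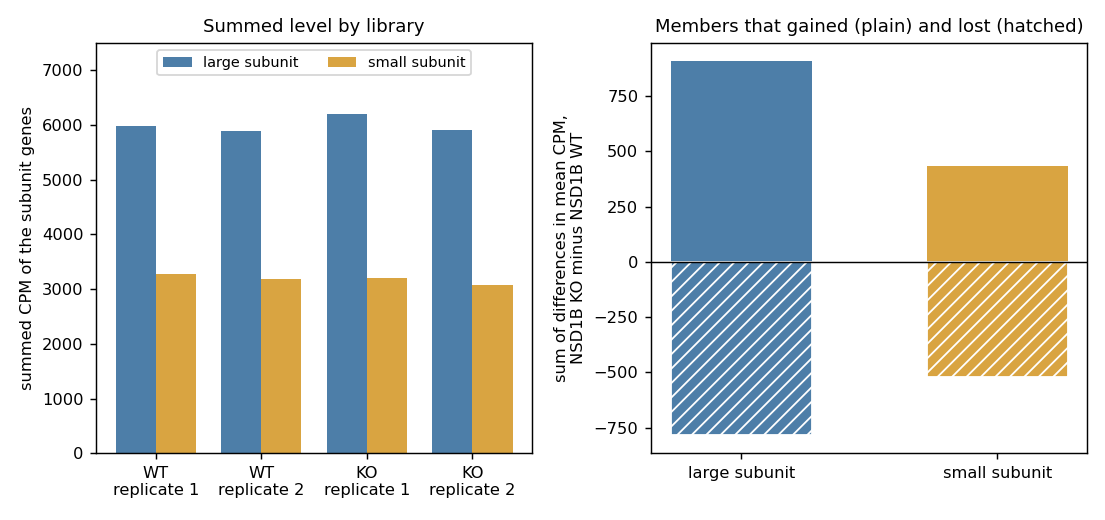
Left, summed CPM of the large (blue) and small (yellow) subunit genes in each library; right, the sums of the differences in mean CPM (NSD1B KO minus NSD1B WT) of genes that gained (plain) and lost (hatched). Gains of 906.8 and 434.7 CPM stood against losses of -781.8 and -520.1 CPM, so the left bars hardly differ.

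Levels can be compared between genes only per length, here as CPM per kb of annotated exon, which understates genes with long, little used exons. The highest of the small subunit was Mrps21 with 415.9 CPM per kb in NSD1B WT and 405.9 in NSD1B KO, and the highest of the large subunit in NSD1B WT was Mrpl42 with 229.4 and 245.6. Mrps14 stood at 207.2 and 227.1, Mrps24 at 205.2 and 177.9, Mrpl18 at 206 and 259 and Mrpl34 at 214 and 186.1. Of these 6, Mrpl18 passed the threshold. Mrpl42 had 5883 and 6329 counts in NSD1B WT and 6537 and 6056 in NSD1B KO. Scaled by TMM these were 823.3 and 865.8 against 908.5 and 900.2 CPM, which did not overlap under this scaling. The log2 fold change was 0.10 (95% interval -0.05 to 0.25). Mrps14 (0.13, interval -0.02 to 0.28) and Mrps21 (-0.04, interval -0.20 to 0.12) were as close to 0.

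The lowest level among the 76 tested genes was that of Mrps5, at 0.316 CPM per kb in NSD1B WT and 0.0106 in NSD1B KO. The median gene stood at 27.0 and 30.2 CPM per kb. The spread of levels over the 76 genes, as the SD of log2 CPM per kb, was 1.98 in NSD1B WT and 2.42 in NSD1B KO. It went from 2.37 to 3.17 in the small subunit and from 1.66 to 1.74 in the large subunit. Mrps5, with 1 count in NSD1B KO, carried much of this, since without it, a setting chosen after seeing the data, the small subunit went from 2.09 to 2.47 and all genes from 1.83 to 2.05. The highest tested gene exceeded the lowest 1320-fold in NSD1B WT, and 298-fold without Mrps5.

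**Figure D4:**
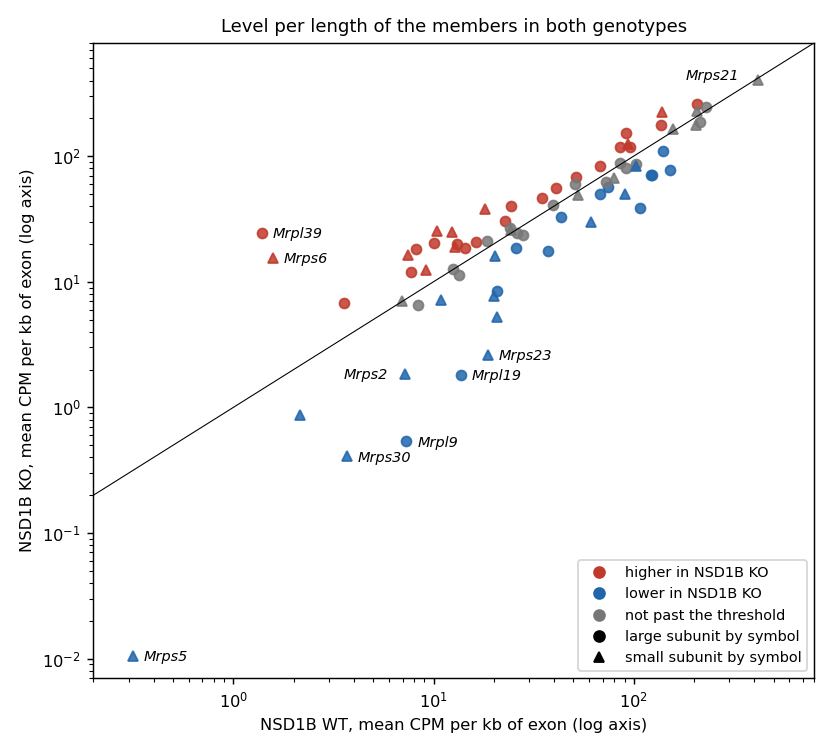
Mean CPM per kb of exon of the 76 tested genes in NSD1B WT (horizontal) and NSD1B KO (vertical), both on log axes, with the line of equality; circles are large and triangles small subunit genes. Genes of high level such as Mrps21 lie near the line, and those far from it (Mrpl39, Mrps6, Mrps5, Mrpl9, Mrps30) have low levels in at least 1 genotype.

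The size of a change went with the level of the gene. In the lowest 26 of the 76 genes by mean log2 CPM, the median absolute log2 fold change was 1.14 and 16 genes changed more than 2-fold. In the middle 25 it was 0.43 with 3 such genes, and in the highest 25 it was 0.31 with 2. All tested genes in the same ranges of level showed the same order, with medians of 1.47, 0.62 and 0.39 and 61.4%, 29.5% and 13.8% changed over 2-fold. The numbers of genes higher and lower were 10 and 11, 9 and 8, and 9 and 6 in the 3 ranges, from low to high.

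**Figure D5:**
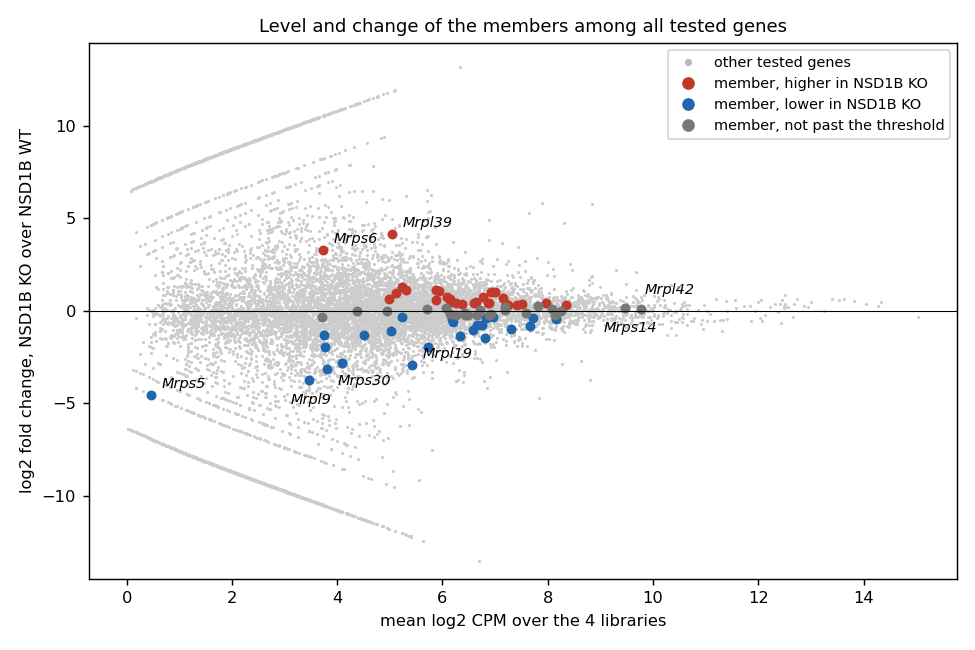
Log2 fold change (NSD1B KO over NSD1B WT) against mean log2 CPM for the 76 members (large points, red for higher, blue for lower, grey for not past the threshold) and all other tested genes (small grey points). The members narrow towards 0 with rising level as the other genes do, and none lies on the outer curves at top and bottom, where the genes lie that were at 0 throughout NSD1B WT or throughout NSD1B KO.

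Genes that overlap others were read with care, because no source used here gives the strand setting of the counting. Of the 76, 32 share exonic bases with another gene. Of these 14 were higher and 8 lower (median log2 fold change 0.15), and of the 44 that share none 14 were higher and 17 lower (median -0.10). Mrps11 and Mrpl46 (chr7:78775236-78783531, minus strand) face each other on opposite strands and share 173 exonic bases. Mrpl46, with 976 and 982 counts against 1210 and 1132, rose as Mrps11 did, and reads in the shared stretch cannot be assigned to either without strand. Mrpl23 has a processed copy, Mrpl23-ps1, with 190 and 232 counts in NSD1B WT and 136 and 136 in NSD1B KO, so reads can be split between them.

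Of 5 genes for proteins of the mitochondrial ribosome that go by other names, 0 were higher and 4 lower, with a median log2 fold change of -0.40. Among all tested genes 37.1% were higher, 41.1% lower and 78.2% past the threshold in either direction. Whether so few genes differ from these shares was not tested. Dap3, a GTP-binding protein of the small subunit, went from 515 and 496 to 168 and 146 counts (-1.63, SE 0.13), and Gadd45gip1, of the large subunit, fell as well (-0.71). Ptcd3 (-0.40) and Chchd1 (-0.28) fell, and Aurkaip1 (-0.15) was not past the threshold. Both mitochondrial rRNAs, around which the proteins assemble, were higher, mt-Rnr1 by 0.39 and mt-Rnr2 by 0.55 on the log2 scale.

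Among 11 mitochondrial translation factors 5 were higher and 3 lower (median 0.35), beside 37.1% and 41.1% of all tested genes. Mtfmt, which formylates the initiator methionyl-tRNA, had 13 and 20 counts in NSD1B WT and 346 and 333 in NSD1B KO (log2 fold change 4.41). Mtrf1, a release factor, had 0 and 0 against 333 and 271 counts, at least 209-fold higher when the NSD1B WT group is set to a floor of 3 counts. Both Tufm and Tsfm, a pair of elongation factors, fell. Tufm, which brings aminoacyl-tRNA to the ribosome, had 227 and 245 against 30 and 13 counts (-3.40). Tsfm, its exchange factor, had 356 and 350 against 1 and 0 counts, a ratio of NSD1B WT to NSD1B KO of 680 (95% counting interval 122 to 26900).

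Of 25 genes for assembly of the mitochondrial ribosome and modification of its rRNA, 23 were tested. Of these 10 were higher and 8 lower (median 0.22), near the 37.1% and 41.1% of all tested genes. Nsun4, an rRNA methyltransferase that works with Mterf4, had 578 and 628 counts against 0 and 0, at least 387-fold lower in NSD1B KO. Mterf4 had 0 and 1 against 60 and 50 counts, a ratio of NSD1B KO to NSD1B WT of 114 (95% counting interval 20.1 to 4550). The 2 partners thus moved in opposite directions. Tfb1m, which methylates the small rRNA, had 37 and 35 against 0 and 0 counts, at least 23.1-fold lower. Mrm1, which methylates the large rRNA, had 0 and 0 against 87 and 80 counts, at least 57.8-fold higher. Counts at or near 0 in a single genotype, as in Mtrf1, Tsfm, Nsun4, Mterf4, Tfb1m and Mrm1, were part of the pattern seen over the whole table, and what lies behind them was not tested.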

How the data were processed

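RNA-seq libraries of sorted splenic B220+ B cells, 2 NSD1B WT and 2 NSD1B KO, were analysed from the deposited count files. The authors made whole-number counts per gene, not normalized; their processing notes name Bowtie2, Cufflinks and mm10, and how genes were counted, and on which strand, was not stated. Rows that name no gene were left out: reads outside genes (44.3 to 44.6% of each file), reads not placed uniquely (11.2 to 13.2%) and a row of ambiguous reads. Counts were scaled by TMM, filtered (filterByExpr, minimum count 10, minimum total 15) and fitted with edgeR 4.0.16 (quasi-likelihood test, limma 3.58.1, R 4.3.3), with Benjamini-Hochberg adjustment over 11657 genes. The fit was tested on simulated data in which few genes changed, so that test does not cover a table where most genes were called. CPM values use the TMM-scaled library sizes. Exon lengths, coordinates and overlaps came from GENCODE M21 (mm10), promoters from RefSeq (GRCm38.p6). DESeq2 1.42.0 and limma-voom served as alternatives.

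Members and gene lists were chosen with earlier results of these data known. Genes were named as the 8 largest increases and decreases among called members whose genotypes did not overlap, the 3 of highest CPM per kb in each subunit, the members with a role in the stalks, exit tunnel, central protuberance, peptidyl transferase centre, release, decoding or head, the Mrps18 genes, Mrps30, Mrps36, untested members, and the 2 largest changes each way in each list. Others, such as Mrpl45, Mrpl43's neighbour Twnk and the marker genes, were named after their values were seen.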

Additional observations from a re-analysis of the deposited data

How the results depend on the processing

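The counts of members called, 28 higher and 25 lower, stayed within 1.5 times under every alternative fit that was run, and 25 of the 28 and 21 of the 25 kept their call in each of the 13 alternative fits that tested them (Mrps5 was left out of 1 by its filter), as did 8 of the 23 that were not called. At a limit of 1e-05 on the adjusted p and of 0.50 on the log2 change, 13 members were higher and 18 lower, with 7 large subunit genes higher and 8 lower and 6 small subunit genes higher and 10 lower. Over all genes, a filter of at least 1 CPM in all 4 libraries left 2855 higher and 2991 lower, against 4324 and 4795, with fewer genes tested. Scaling moved the medians. With library size alone the large and small subunit medians were -0.03 and -0.18 (all genes -0.18), and their summed CPM ratios, an alternative chosen after seeing the data, 0.967 and 0.922. Removing a trend in exon length and GC content gave medians of 0.26 and 0.10 (all genes 0.10), and the same subunit values with the replicate block. The small subunit median ranged from -0.22 to 0.04 when each library was left out in turn, the lone library of a genotype being assumed to vary like the others; it was 0.04 without NSD1B WT replicate 1, -0.22 without NSD1B WT replicate 2 and -0.19 without NSD1B KO replicate 1. By place in the ribosome, also chosen after seeing the data, the ratio of large to small sums was 1.99 in NSD1B WT and 2.07 in NSD1B KO, against 1.84 and 1.93.

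Calls changed in genes near the threshold and, with the trend removed, also in genes further from it. Mrpl4 went from 0.15 to 0.57, Mrps7 from 0.09 to 0.48, Mrpl45 from 0.04 to 0.28 and Mrps15 from -0.10 to 0.27. All of these were then called higher. The widest range of values was that of Mrps5 (-6.89 to -3.74), which stayed lower. Without NSD1B WT replicate 1 Mrps21 turned to 0.04. With the trend removed Mrpl34 turned to 0.17, Mrps21 to 0.30 (then called), Mrps24 to 0.15, Mrpl40 to 0.12, Mrpl58 to 0.01 and Mrps12 to 0.10, and with the replicate block as well Mrpl34 to 0.16 and the other 5 to the same values. Called genes that were no longer called were Mrpl18 (0.25), Mrpl24 (0.22) and Mrpl46 (0.23) with library size alone, Mrpl18 (0.26) and Mrpl24 (0.25) without NSD1B KO replicate 1, Mrps36 (-0.23) without NSD1B WT replicate 2, and Mrpl23 (-0.06), Mrpl27 (-0.02) and Mrps36 (-0.13) with the trend removed. Mrps34, which shares exonic bases with Mapk8ip3 and Nme3, was the least stable, called lower (-0.33) in 7 of 13 alternative fits. It was not called by DESeq2 (-0.32, adjusted p 0.125) or limma-voom (-0.33, adjusted p 0.0686), without NSD1B WT replicate 1 (-0.27) or NSD1B KO replicate 2 (-0.19), or with the trend removed, where it turned to 0.08. The cause was not tested. Libraries with the same number deviated together with a correlation of 0.0645. With 2 libraries per genotype this is a single value, which cannot show whether they share more than a number. The replicate block gave 28 members higher and 25 lower (4254 and 4706 of all genes) and by itself changed no call listed here. With 2 libraries per genotype and few counts in Mrps5 and Mrpl38, depth limits what can be said of them.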
